A study of Mus musculus with 18 samples.

Results

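At 2776 places in the mouse genome a Notch1 peak was listed in T cell leukaemia where H3K27me3, but not H3K4me3, was listed as different between leukaemia and normal thymocytes. They are the autosomal Notch1 peaks, of 14541 in all (19.1%, 95% Clopper-Pearson interval 18.5 to 19.7), that share 1 bp or more with a listed H3K27me3 region and no base with a listed H3K4me3 region. The members were thus chosen by the measured lists themselves. Their overlap with H3K27me3, its colour and the absence of H3K4me3 are given as description, with no test. Of the other autosomal peaks, 1423 met H3K4me3 regions only, 581 met regions of both marks and 9761 met neither.

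The tested cells were T cell acute lymphoblastic leukaemia (T-ALL) tumours that over-express Notch1-IC, the intracellular, constitutively active form of Notch1. The comparison cells were CD4+ CD8+ double-positive (DP) thymocytes from normal thymus. The labels used here give neither strain nor age, neither the promoter that drives Notch1-IC nor the number of tumours pooled. For H3K27me3, H3K4me3, H3K9ac and the micrococcal nuclease-treated input there were 2 T-ALL and 2 DP libraries each, and T-ALL had 1 Notch1 and 1 sonicated input library. Notch1 was thus measured in T-ALL and not in DP cells. Per the labels' protocols, fixed chromatin was digested to mononucleosomes for the histone marks, while sonication alone fragmented it for Notch1.

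Notch1 is a transmembrane receptor. Ligand binding releases its intracellular part, which enters the nucleus and joins the DNA-binding protein RBPJ (CSL) and Mastermind to switch on target genes. In developing T cells it drives commitment to the T lineage, and it is often activated by mutation in human T-ALL. H3K27me3 is laid down by Polycomb repressive complex 2 (PRC2) and marks repressed chromatin, whereas H3K4me3 and H3K9ac mark active promoters. Genes of PRC2 itself are lost or mutated in part of human T-ALL.

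Each deposited list gives positions on mm9 and nothing on size: the BED score is 1000 in every row. Histone regions are coloured red or green. No header or label ties a colour to a gain or a loss in T-ALL, so the colours serve below only as names. A listed region is a place called different between T-ALL and DP cells. A peak that meets no listed H3K4me3 region can therefore still carry H3K4me3 that did not differ. The lists hold no values per library, so depth is unknown and no spread between replicates could be computed. Intervals of shares below are exact binomial 95% intervals, and 95% intervals of medians come from binomial order statistics. Both kinds cover counting error only, and neighbouring peaks of 1 library are not independent. Gene assignment and sequence on mm9 were not analysed here, so regions are named by position.

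Nearly all of these peaks lay in red H3K27me3 regions. Of the 2776 peaks, 2697 met red regions only (97.2%, 96.5 to 97.7), 57 met green regions only (2.05%, 1.56 to 2.65) and 22 met both colours (0.79%, 0.50 to 1.20). For scale, the autosomal H3K27me3 list holds 12912 red and 9667 green regions. The 581 peaks that met both marks were divided in a like way, with 558 in red H3K27me3 only (96.0%, 94.1 to 97.5), 13 in green only and 10 in both colours. Red thus made up most of the H3K27me3 regions met with and without H3K4me3, and both shares rest on the contrast that chose the peaks. On the region side, 2656 red regions held at least 1 of these peaks (20.6% of the autosomal red regions), against 83 green ones (0.86%).

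The peaks were spread over all 19 autosomes, with the most on chromosome 2 (271 of 1224 Notch1 peaks) and the fewest on chromosome 16 (56 of 376). As a share of a chromosome's Notch1 peaks they ran from 14.0% on chromosome 17 (11.6 to 16.6) to 23.7% on chromosome 3 (19.8 to 28.0). Chromosomes 10 and 16 were also low, at 14.6% and 14.9%, and chromosome 6 was high at 23.0%. The intervals of chromosomes 3 and 17 did not overlap, but these were singled out as the highest and lowest of the 19. The intervals of chromosomes 2, 3 and 6 lay above the overall 19.1% and those of 5, 10, 16 and 17 below it. The intervals of the other chromosomes held it. Chromosome 17 had 511 red and 282 green H3K27me3 regions, and chromosome 3 had 421 red and 453 green. The share of these peaks that met red regions only was lowest on chromosome 13, at 81 of 86.

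**Figure D1:**
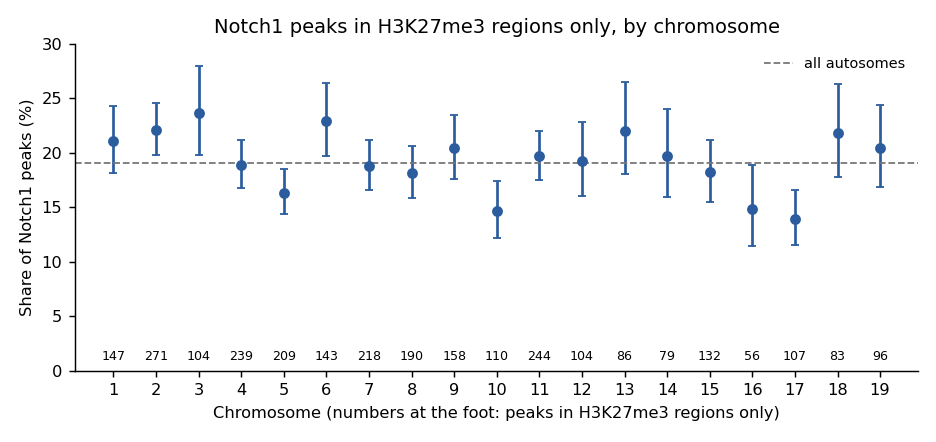
Share of the Notch1 peaks of each autosome that met H3K27me3 regions only (points, in percent), with exact binomial 95% intervals (bars), and their number at the foot of each column. The shares lie between 14.0% on chromosome 17 and 23.7% on chromosome 3, around the 19.1% of all autosomes (dashed line).

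Most of these peaks were largely covered by H3K27me3. The median peak was 700 bp wide (from 500 to 2475 bp) and shared a median of 575 bp with H3K27me3, so that a median 93.9% of its bases were covered. Of the 2776 peaks, 1243 were covered in every base (44.8%, 42.9 to 46.6), 1234 of them inside a single region, and 2461 were covered over 50% or more of their width (88.7%, 87.4 to 89.8). Only 79 peaks met 2 or more H3K27me3 regions. Peak width is not independent of the choice, because a wide peak meets a region more easily. The median was 725 bp for peaks in H3K4me3 only, 775 bp for those in both marks and 650 bp for those in neither. Among all autosomal peaks of 500 to below 600 bp, 16.2% (15.2 to 17.3) met H3K27me3 only, and among those of 1000 to below 1500 bp 28.3% (25.4 to 31.4) did.

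Red and green regions held their peaks in different places. In peaks that met red regions only, the centre of the peak lay inside the region in 2444 of 2697 cases (90.6%, 89.5 to 91.7). The median distance between peak centre and region centre was 175 bp, and a median 95.2% of the peak was covered. In peaks that met green regions only, the centre lay inside the region in 13 of 57 cases (22.8%, 12.7 to 35.8). There the median distance between the centres was 462.5 bp, and a median 30.6% of the peak was covered. Of these 57 peaks, 55 crossed 1 edge of the green region, 1 lay wholly inside it and 1 held it whole. In the red class 1146 crossed 1 edge, 1233 lay wholly inside and 320 held the region whole, where a peak with exactly the region's limits counts as both. The side of the region was even in both colours: of the peaks crossing 1 edge, 562 of 1146 red and 30 of 55 green ones lay towards the lower coordinate.

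Region width differed between the colours and touches these values. The regions behind them had a median of 975 bp in the red class and 675 bp in the green. Among regions of 500 to 1000 bp, a range chosen after the values were seen, the medians were 725 bp and 650 bp. In that range the peak centre lay inside the region in 1155 of 1321 red cases (87.4%, 85.5 to 89.2) and in 11 of 48 green cases (22.9%). The median distance between centres was 125 bp in the red class and 450 bp in the green one. A median 80% of the peak was covered in the red class there, and 32.8% in the green. Only 282 of the 1321 red cases (21.3%, 19.2 to 23.7) lay wholly inside the region. The colours thus differed in the same direction among regions of like width. Both colours come from the contrast that chose the members, so this is a description of the lists.

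**Figure D2:**
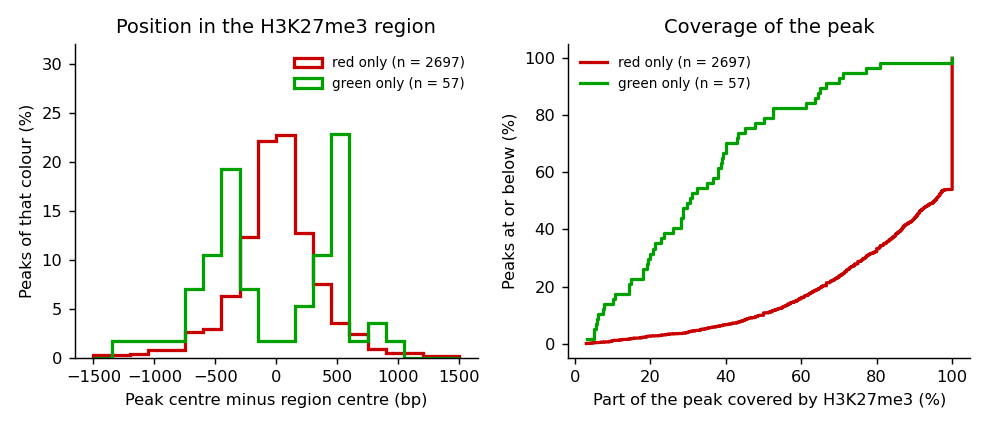
Left, distance from the centre of the H3K27me3 region to the centre of the Notch1 peak (bp, x axis; values beyond 1500 bp are in the end bins) as a percentage of the peaks of that colour (y axis); right, cumulative percentage of peaks (y axis) by the part of the peak that H3K27me3 covers (x axis, percent). Peaks in red regions (n = 2697) pile up at the centre and are mostly covered, and those in green regions (n = 57) pile up to either side with a median of 30.6% covered.

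The 22 peaks that met both colours lay, by definition, where a red and a green region were less than a peak width apart. In 5 of them the regions touched, and the median gap between red and green was 50 bp, with a largest gap of 300 bp. Red covered more of the peak in 21 of the 22, with a median of 600 bp red and 75 bp green. Red did not always cover most of the peak: at chr15:79330326-79330975 it covered 200 bp of a peak of 650 bp.

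Coverage was also read at fixed distances from the peak centre. At the peak centre a red H3K27me3 region covered 88.7% of the 2776 peaks and a green one 0.47%. At 500 bp to either side these were 49.9% and 2.45%, at 1000 bp 23.9% and 7.11%, and at 2000 bp 14.3% and 10.5%. At 5000 bp red covered 8.14% and green 5.42%. Among these distances green coverage was lowest at the centre and highest at 2000 bp. The choice by H3K27me3 overlap put red over most centres, which left little room there for green regions of the same list. Around the 9761 peaks in neither mark, red covered 1.30% and green 0.40% of positions at 2000 bp. The 581 peaks in both marks had a profile much like that of the 2776. There red covered 83.5% at the centre and 12.7% at 2000 bp, and green 0.17% and 10.1%. The profile is thus not particular to peaks in H3K27me3 only.

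Green flanks were also common beside red regions without Notch1. Of the 2656 red regions that held one of these peaks, 1296 had a green region within 5 kb (48.8%, 46.9 to 50.7), and of the 8682 red regions that shared no base with a Notch1 peak or an H3K4me3 region, 4026 did (46.4%, 45.3 to 47.4). Among red regions of 500 to 1000 bp the shares were 37.7% (35.1 to 40.3) with a peak and 40.2% (39.0 to 41.4) without. Another red region lay within 5 kb of 59.6% (57.7 to 61.4) of the red regions with a peak and of 65.1% (64.1 to 66.1) of those without. The median gap to the nearest other red region was 2550 bp with a peak and 1950 bp without. Red regions with neither colour within 5 kb made up 25.1% and 24.4% in the same order.

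**Figure D3:**
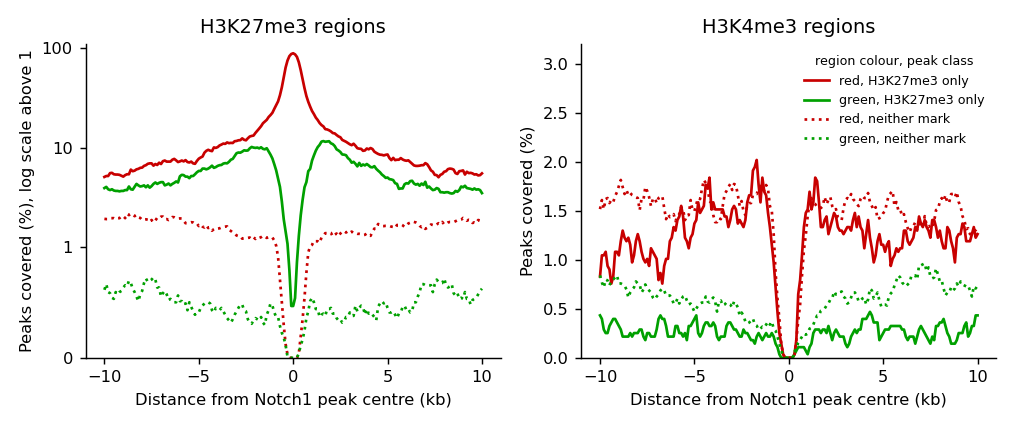
Percentage of Notch1 peaks (y axis; left panel on a log scale above 1) covered by red or green regions of H3K27me3 (left) and H3K4me3 (right) at each distance from the peak centre (x axis, kb), for peaks in H3K27me3 only (solid, n = 2776) and in neither mark (dotted, n = 9761). Red H3K27me3 stands at 88.7% at the centre of the first class, green H3K27me3 falls to 0.47% there and reaches 10.5% at 2 kb. Peaks in both marks are not drawn. The H3K4me3 gap at the centre follows from how the classes were made. The green H3K27me3 dip is bound up with it too, because red already covers most centres of the first class.

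Red regions with a peak were broader in the median. Their median width was 950 bp (quartiles 675 and 1475 bp), and that of red regions without a Notch1 peak or H3K4me3 region was 675 bp (525 and 900 bp). The share of red regions holding one of these peaks was 11.9% (9.94 to 14.1) below 500 bp, 15.4% (14.7 to 16.2) from 500 to below 1000 bp and 30.5% (28.4 to 32.6) from 1000 to below 1500 bp. It was 38.3% (35.0 to 41.7) from 1500 to below 2000 bp and 48.4% (44.6 to 52.3) from 2000 bp upwards. A broader region offers more bases to meet a peak, and the part of that in the increase was not tested. In green regions the share was lower in each width class. It was 1 of 553 (0.18%, 0.0046 to 1.00) below 500 bp, 0.80% (0.61 to 1.03) from 500 to below 1000 bp and 0.99% (0.50 to 1.77) from 1000 to below 1500 bp. From 1500 to below 2000 bp it was 8 of 303 (2.64%, 1.15 to 5.14), and from 2000 bp upwards 2 of 103 (1.94%, 0.24 to 6.84).

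Of the H3K27me3 regions that held any of these 2776 peaks, most held a single one: 2631 held 1, 99 held 2 and 9 held 3. The 5 broadest of the 9 are given here. The broadest was red, 5100 bp wide, at chr8:73267151-73272250. Its peaks were 575, 650 and 525 bp wide and covered 1525 bp of it, and the nearest H3K4me3 region was 6850 bp from any of them. The next was chr15:98620001-98623725, 3725 bp wide and red, with peaks of 850, 825 and 700 bp. The other three were also red. At chr8:90483451-90486575 (3125 bp) peaks of 750, 675 and 650 bp followed each other closely and covered 2075 bp. At chr9:31720201-31722800 (2600 bp) they covered 1925 bp, and at chr3:53458926-53461425 (2500 bp) they covered 1875 bp. In these last 3 regions the nearest H3K4me3 region was 33150, 113250 and 137075 bp away in the same order.

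The 10 widest peaks, 1775 to 2475 bp, all met red regions only, as did 97.2% of all 2776 peaks. The widest was chr15:83933376-83935850. It reached over 2 red regions that covered 72.7% of it. The next, chr4:153469601-153471850 and chr4:150517701-150519800, were 2250 and 2100 bp wide, and in both a red region of 500 bp covered under 25% of the peak (22.2% and 23.8%). In the other 7 the coverage was 81.7% to 100%. The broadest of those were chr11:92959201-92961250 and chr9:49604726-49606675, which were 2050 and 1950 bp wide and fully inside red regions of 2575 and 2350 bp. Next came chr15:10965476-10967400, 1925 bp wide and inside a red region of 2325 bp, with the centres 25 bp apart. The remaining 4 of the 10 were chr17:43765976-43767800, chr5:137357301-137359125, chr12:57796501-57798275 and chr5:38214401-38216175. The nearest listed H3K4me3 region was 11275 to 254825 bp from these 10 peaks, and it was red for 5 and green for 5. Over all 2776 peaks it was red for 74.2%, and 10 peaks are few to set beside that share.

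The widest peaks in green regions only show the edge position one by one. The widest, chr8:87295676-87296650, was 975 bp wide and shared 275 bp with a green region of 1175 bp, its centre 800 bp from that of the region. At chr12:74204326-74205250 and chr19:42278551-42279450 the peaks shared 350 bp each with green regions of 825 and 925 bp, and at chr8:87140551-87141450 the peak shared 275 bp with a region of 700 bp. The peak at chr7:77482176-77483100, 925 bp wide, differed in that it met a green region at either end, which together covered 400 bp of it.

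At the border of the rule, 11 members shared 25 bp or less with H3K27me3, where 25 bp is the step on which all listed positions lie. Of these, 8 touched red and 3 touched green regions. On the other side 25 peaks in neither mark lay 25 bp or less from an H3K27me3 region, 15 of them touching it without a shared base, and 11 of the 25 were beside red and 14 beside green regions. At the H3K4me3 side of the rule, 9 members lay 25 bp or less from an H3K4me3 region, of which 7 were red and 2 green.

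H3K4me3 regions lay farther from these peaks than from peaks in neither mark, except at close range. The nearest one was a median of 21888 bp away (20200 to 23525) for peaks in H3K27me3 only and 15825 bp (15300 to 16475) for peaks in neither. Within 1 kb the shares were 5.91% (5.06 to 6.85) and 6.02% (5.56 to 6.51), and within 10 kb 31.6% (29.8 to 33.3) and 38.7% (37.7 to 39.7). The nearest H3K4me3 region within 1 kb was red for 148 of 164 peaks in H3K27me3 only (90.2%, 84.6 to 94.3) and for 492 of 588 in neither (83.7%, 80.4 to 86.6). These intervals overlapped. At any distance the nearest one was red for 74.2% (72.5 to 75.8) and 70.6% (69.7 to 71.5) in the same order. For scale, the autosomal H3K4me3 list holds 11075 red and 10052 green regions. In 91 of the 2697 peaks in red H3K27me3 (3.37%) the same red region met an H3K4me3 region outside the peak. In the other red cases no listed H3K4me3 region met any part of that H3K27me3 region.

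H3K9ac, a mark of active chromatin, was listed as different on 11 autosomes. The choice of members did not use that list directly, and few of these peaks met a listed region. A peak that meets none can still carry H3K9ac that did not differ. On those chromosomes 2 of 1783 peaks in H3K27me3 only shared bases with an H3K9ac region (0.11%, 0.014 to 0.40), against 0.421% of all 9030 Notch1 peaks there. The shares were 24 of 866 for peaks in H3K4me3 only (2.77%, 1.78 to 4.10), 2 of 353 for both marks (0.57%, 0.069 to 2.03) and 10 of 6028 for neither (0.17%, 0.080 to 0.30). The 0.421% includes the peaks in H3K4me3 only, which the rule leaves out and which held 24 of the 38 overlaps. It is thus no like comparison, and overlap counts are too few to tell the first class from the last. Within 10 kb the numbers are larger: 24 of the 1783 peaks had an H3K9ac region there (1.35%, 0.86 to 2.00), against 8.89% (7.08 to 11.0) for H3K4me3 only, 3.68% (1.98 to 6.22) for both marks and 5.29% (4.74 to 5.89) for neither. The interval of the first share lay below those of H3K4me3 only and of neither, and just overlapped that of both marks. These intervals treat each peak as independent, although near peaks can count the same H3K9ac region, so this is a description. The median distance to the nearest H3K9ac region was 227950 bp (209050 to 245900) for peaks in H3K27me3 only and 158400 bp (152450 to 165450) for neither.

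The 2 peaks with H3K9ac were unlike each other. The peak chr9:69607276-69608150 lay wholly inside a red H3K27me3 region of 2775 bp, chr9:69606726-69609500, and wholly inside a green H3K9ac region of 2725 bp, chr9:69606701-69609425. These regions shared 2700 bp, so red H3K27me3 and green H3K9ac were listed over the same stretch, and a green H3K4me3 region lay 375 bp from the peak. At chr7:7252476-7253175 the peak shared 125 bp with a red H3K27me3 region at one end and 175 bp with a red H3K9ac region at the other, and those regions lay 400 bp apart.

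Where another Notch1 peak lay near one of these peaks, it was mostly of the same class. Another Notch1 peak lay within 5 kb of 1036 of the 2776 peaks (37.3%, 35.5 to 39.1), where 33.9% of all autosomal Notch1 peaks had one. The share was 34.9% (32.4 to 37.4) for H3K4me3 only, 35.5% (31.6 to 39.5) for both marks and 32.7% (31.8 to 33.6) for neither. Among the 1036, the nearest peak was also in H3K27me3 only in 649 cases (62.6%, 59.6 to 65.6) and in neither mark in 264 (25.5%, 22.9 to 28.3). It met both marks in 96 and H3K4me3 only in 27. Peaks within 5 kb can meet the same H3K27me3 region, and a pair counts 2 times when each is the other's nearest. For the 496 peaks in H3K4me3 only with a near neighbour, that neighbour met H3K27me3 only in 28 cases (5.65%, 3.78 to 8.06), and for the 3191 in neither mark it did in 269 (8.43%, 7.49 to 9.45). For the 206 peaks in both marks it did in 95 cases (46.1%, 39.2 to 53.2). The nearest peak was of the same class for 2527 of 3191 peaks in neither mark (79.2%, 77.7 to 80.6). It was so for 100 of 496 in H3K4me3 only (20.2%, 16.7 to 24.0) and 37 of 206 in both marks (18.0%, 13.0 to 23.9). Of all autosomal peaks, 67.1% were in neither mark, 19.1% in H3K27me3 only, 9.79% in H3K4me3 only and 4.00% in both. The classes thus differ in size, from 581 to 9761 peaks, and the part of that in the same-class shares was not tested.

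**Figure D4:**
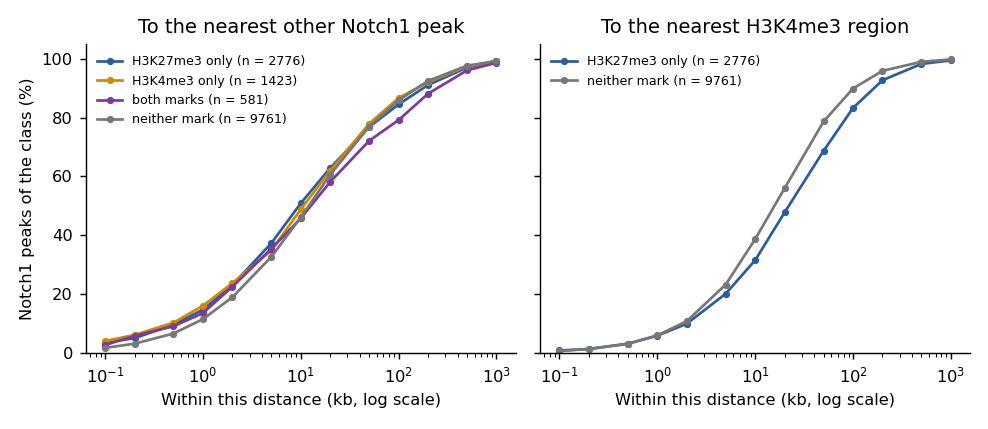
Cumulative percentage of Notch1 peaks of each class (y axis) by distance (x axis, kb, log scale) to the nearest other Notch1 peak (left) and to the nearest H3K4me3 region (right, for the classes that meet none). Within 5 kb the curves to the next Notch1 peak stand between 32.7% and 37.3%. Those to H3K4me3 part beyond 1 kb, with 31.6% of peaks in H3K27me3 only and 38.7% of those in neither within 10 kb.

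Chaining members within 10 kb of each other gave 2254 groups, of which 1865 were single peaks and 389 held 2 or more, 911 peaks in all. In 29 groups there were 4 or more, 121 peaks together: 25 groups of 4, 3 of 5 and 1 of 6. The groups of 5 and 6 and, of the 25 with 4, the one spanning the fewest bases are described. The largest held 6, in 23050 bp at chr19:44808926-44831975. Its peaks were 525 to 1075 bp wide and covered 68.6% to 100% by H3K27me3, in a stretch with 7 red and 8 green H3K27me3 regions and 0 H3K4me3 or H3K9ac regions. Red and green regions were interspersed there, and 5 of the 6 peaks met red ones only, while the second met both colours. At chr9:74694551-74715225, 5 peaks of 675 to 950 bp lay in a like stretch of 5 red and 6 green regions, and all 5 met red regions only.

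The other three of the 5 groups named here held no green H3K27me3 region within their limits. At chr4:151499176-151505700, 5 peaks of 500 to 725 bp lay within 6525 bp, and red regions covered 85.2% to 100% of each peak. At chr1:75402676-75428275 there were 5 such peaks and a further Notch1 peak, with 7 red H3K27me3 and 4 red H3K4me3 regions between or beside them. At chr8:90481751-90486475, 4 peaks of 525 to 750 bp lay on 2 red regions. The first peak had 33.3% covered and 3 of the 4 lay wholly inside the region of 3125 bp named above.

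On a coarser scale most windows held few of these peaks. Of 1881 windows of 1 Mb with an autosomal Notch1 peak, 1076 held a peak in H3K27me3 only, with a median of 2 and a maximum of 19. In 26 windows there were 10 or more, 336 of the 2776 peaks together. The windows with the most, looked up after their values were seen, were those starting at 51000001 on chromosome 7 and at 79000001 on chromosome 10, with 19 each. The chromosome 7 window held 41 Notch1 peaks, so that 46.3% of them met H3K27me3 only, and the chromosome 10 window held 107, so that 17.8% did. Both windows thus held the same number of these peaks among different numbers of Notch1 peaks. Among the 7 windows with 17 or more the share was highest on chromosome 4 from 129000001, where 17 of 29 peaks met H3K27me3 only (58.6%).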

How the data were processed

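The submitters' processing notes name BWA and the builds NCBIM37 and mm9, with no version. How peaks and differing regions were called, with which thresholds and inputs, and whether replicates were pooled is not given in the sources used here. Deposited by the authors were 1 Notch1 list and 3 lists comparing T-ALL with DP cells. Each row holds a start and end, and the deposited BED score, 1000 throughout, carries no measurement. Positions were changed to 1-based starts, and chromosomes X and Y were left out. Classes were made with Python 3.11.15, NumPy 2.4.6, pandas 2.3.3 and SciPy 1.17.1, tested on simulated lists, and bedtools 2.31.1 also gave 2776 members. Where a peak met 2 regions, the one sharing most bases was used for centres. A gap of 0 bp means touching or sharing bases. Intervals of medians come from binomial order statistics.

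Every comparison is a description: rows of 1 list are not replicates, and the depth of the libraries is unknown. The members, lists and comparisons were chosen with earlier results of these data known. Regions named are the 10 widest members, the 5 regions with the most members (ties by width), the 5 largest groups within 10 kb (ties by fewest bases spanned), the members with H3K9ac and the 5 widest green-only members. Planned counts by gene, motif and GC content need mm9 and were not run. Widths, overlap minimum, H3K4me3 flanks and merging were varied.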

Additional observations from a re-analysis of the deposited data

Results flagged for a closer look

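The rule kept to autosomes, so chromosome X was not used above. It carried 28 Notch1 peaks, of which 7 met H3K27me3 regions and no H3K4me3 region (25.0%, exact binomial 95% interval 10.7 to 44.9). They are given because X lies outside the rule, and the interval holds the autosomal 19.1%. All 7 met red regions, but nearly all of the 103 H3K27me3 regions listed on X were red. Of 13012 red regions 12912 were autosomal, and of 9670 green ones 9667 were. The colour met by the 7 peaks was thus close to that of the regions listed on X. The median width of the 7 peaks was 600 bp. Another 2 of the 28 met H3K4me3 only.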

How the results depend on the processing

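Of 52 alternative values for 9 results, 33 stayed within the 95% interval of the reported value (or, for the count, within 1.5 times) and 19 moved. Keeping peaks at or above the median width of 675 bp left 1579 members with a median width of 825 bp. Of these, 36.8% lay wholly inside a region and 21.79% had another Notch1 peak within 5 kb, and 11.11% of green-only members had their centre inside the region. Requiring 50% of the peak covered gave 98.7% red only and 50.14% wholly inside. Keeping H3K27me3 regions at or above their median width of 700 bp gave 57.61% wholly inside and 95.02% of red-only members with the centre inside. Merging peaks within 1 kb gave 41.85% wholly inside, 27.34% with a neighbour, 4.979% within 1 kb of H3K4me3 and 88.49% of red-only centres inside. Keeping only H3K27me3 regions of 500 to 1000 bp, a setting added after the data were seen, left 1401 members. Of these, 95.65% were red only, 20.2% lay wholly inside, 34.62% had a neighbour and 4.568% were near H3K4me3. Of the red-only centres 86.57% lay inside. The 1321 red and 48 green cases given earlier are another set, picked from the full list by the width of the region sharing most bases. The results on centres were also added after the data were seen. Fewer peaks or regions enter each of these settings by construction, and the cause of the moves was not tested otherwise. No paired analysis was possible because each list is a single set of positions, without a column for any library. Leaving out a replicate was likewise not possible. Gene starts, GC content and motifs were not run. The depth behind each peak is unknown.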
